A study of Mus musculus with 12 samples.

Results

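The nuclear-encoded genes of oxidative phosphorylation were read in CD11c cells that came from inguinal lymph nodes of mice. A protein-coding gene was taken as a member if its symbol began with Ndufa, Ndufb, Ndufc, Ndufs, Ndufv, Uqcr, Cox4i, Cox5, Cox6a1, Cox6b1, Cox6c, Cox7, Cox8a, Atp5 or one of Sdha to Sdhd, which gave 94 of the 52355 genes in the table of counts. Of these, 36 belong to complex I, 4 to complex II, 8 to complex III, 16 to complex IV and 17 to complex V. The other 13 are assembly factors named Ndufaf or Sdhaf and Atp5s, a factor coupled to complex V. Ndufa4 and its paralog Ndufa4l2 were counted with complex IV, where the Ndufa4 protein sits in spite of its name, and Cox7a2l, which helps join complexes into supercomplexes, was kept there too. Under the name Atp5o, 2 gene identifiers were held, and how reads were divided between them is uncertain.

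RNA was measured in 12 libraries, 4 per group: healthy mice (labelled Healthy), mice with a subcutaneous KPC tumor, from whose tumor-draining node the cells came (TdLN), and such mice given an agonist of CD40 (TdLN_CD40). CD40 is a receptor of antigen-presenting cells that T cells engage to activate them, and CD11c, the product of Itgax, marks dendritic cells and some macrophages. Titles begin with a prefix that recurs once in every group, and it served as replicate number 1 to 4. The sources used here do not give the dose and timing of the agonist, the strain and age of the mice, the purity of the sort, or whether each library had its own animal. The p-values therefore reflect only how these libraries scatter, some of which may be technical.

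Oxidative phosphorylation makes ATP in the inner mitochondrial membrane. Complex I (NADH dehydrogenase) and complex II (succinate dehydrogenase, also an enzyme of the tricarboxylic acid cycle) pass electrons to coenzyme Q, complex III passes them to cytochrome c, and complex IV (cytochrome c oxidase) passes them to oxygen. Complexes I, III and IV pump protons, and complex V (ATP synthase) lets them flow back to make ATP. Complex II is wholly encoded in the nucleus, whereas core subunits of the others come from the mitochondrial genome. In dendritic cells, resting and tolerogenic states are known to lean on respiration, and strong activation is known to shift inflammatory dendritic cells toward glycolysis.

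The library totals were 32626784 to 56320661 estimated counts, of which the members took 0.513% to 0.733%. Itgax stood at 641 to 1130 CPM (counts relative to library size, scaled by the trimmed mean of M values) in the 12 libraries, and the class II gene H2-Ab1 at 3350 to 7803 CPM, so that the markers of the labelled cells were present. The libraries differed strongly by prefix: genes of the mitochondrial chromosome took 4.13% to 4.75% of the counts in the libraries of replicate 1 and 1.23% to 2.90% in the others. The prefix accounted for a median of 60.8% of the variance in log2 CPM of the 79 tested subunits and the group for 19.8%, beside 50.3% and 19.6% over all 23729 genes tested. Of the 94 members, 92 passed the count filter, and Cox7b2 and Ndufa4l2 did not. Calls below are at a Benjamini-Hochberg adjusted p under 0.05 in edgeR's quasi-likelihood test over all genes tested, and each count is given without and with the prefix as a block, because libraries with the same prefix deviated together. The 3 comparisons share groups of libraries and are not independent of each other.

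**Figure D1:**
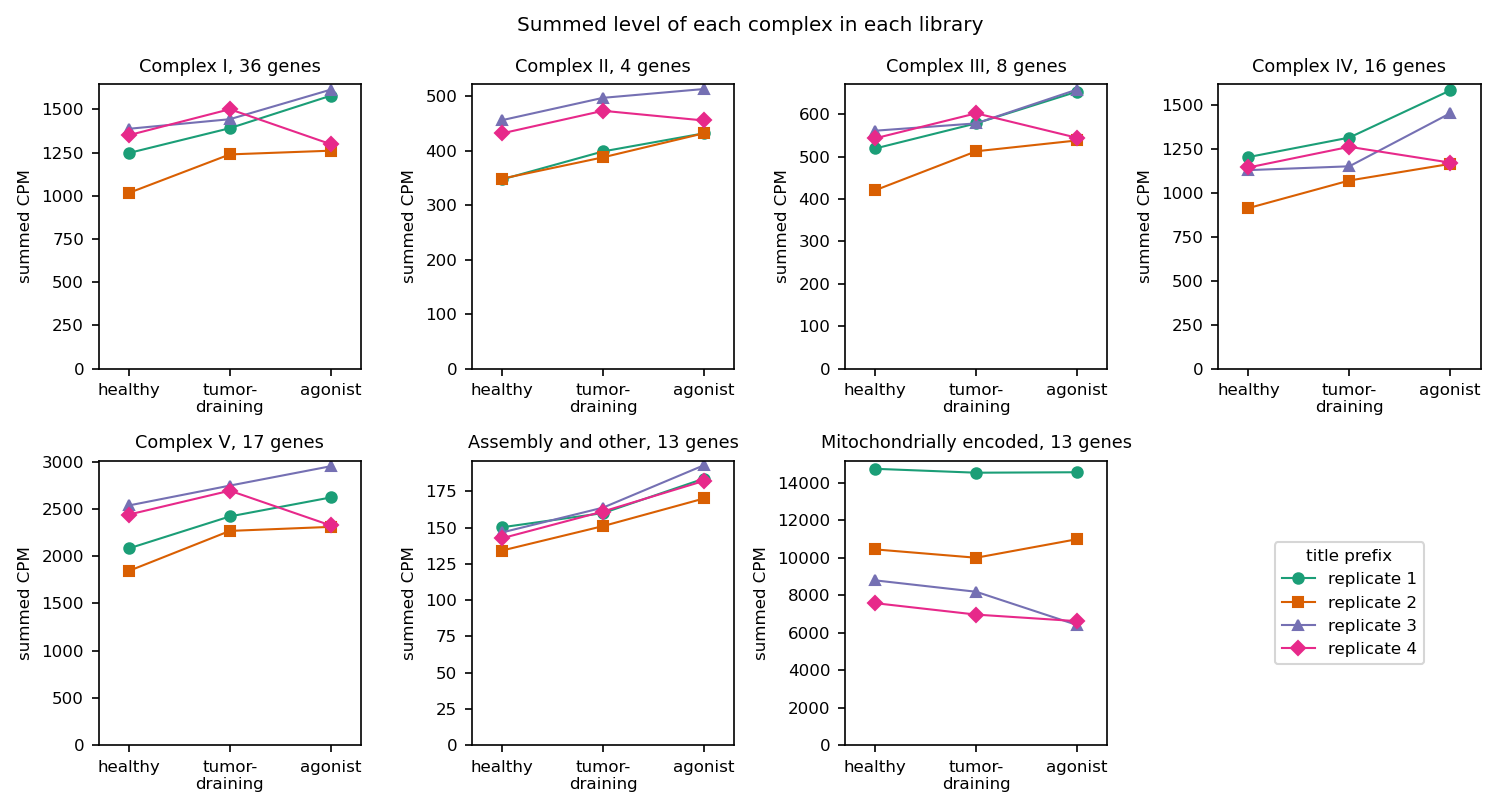
Summed level of the genes of each complex in each library, in TMM-scaled CPM on an axis that starts at 0, with 1 line per title prefix joining its healthy, tumor-draining and agonist libraries. The nuclear-encoded sums were higher in the tumor-draining than in the healthy library of every prefix. Replicate 4 turned down from the tumor-draining to the agonist library in complexes I to V. The sum of the assembly factors and Atp5s did not turn down there, although 7 of these 13 genes were lower.

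Per complex, the summed level was higher in the tumor-draining than in the healthy library of all 4 prefixes. The complex I sum was 1248, 1017, 1388 and 1351 CPM in healthy replicates 1 to 4, 1392, 1240, 1443 and 1501 CPM in tumor-draining replicates 1 to 4, and 1579.5, 1261, 1615 and 1299 CPM in agonist replicates 1 to 4. The complex V sum averaged 2226 ± 321 CPM in healthy, 2532 ± 227 CPM in tumor-draining and 2552 ± 303 CPM in agonist libraries (SD, n = 4 each), so that the groups overlapped. The complex IV sum averaged 1098 ± 127, 1200 ± 110 and 1344 ± 209 CPM in the same order. The assembly factors and Atp5s summed to 150, 134, 147 and 143 CPM in healthy, 160, 151, 164 and 161 CPM in tumor-draining and 184, 170, 193 and 182 CPM in agonist replicates 1 to 4. In this sum the 3 groups did not overlap, although healthy replicate 1 and tumor-draining replicate 2 were close. From tumor-draining to agonist libraries Sdhaf1 and Sdhaf2 carried its rise, and the median log2 fold change of the 13 genes was -0.05. Complex II averaged 396 ± 56.3, 439 ± 54.1 and 458 ± 38.4 CPM, and complex III 511 ± 62.6, 568 ± 38.5 and 598 ± 66.2 CPM. These sums are described without a test.

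Among members, abundance per transcript length spanned a wide range in deposited TPM, a length-corrected unit. Cox6b1, a small subunit that bridges the complex IV dimer, was the most abundant member at a mean of 859 TPM, followed by Atp5b, the catalytic beta subunit of ATP synthase, at 674 TPM and Cox4i1, the regulatory subunit first added to complex IV, at 585 TPM. In complexes I to III the highest means were 374 TPM for Ndufa10, 342 TPM for Sdha and 234 TPM for Uqcrh, and the highest assembly factor was Ndufaf2 at 31.6 TPM. A part of these levels came from transcripts annotated as other than protein-coding, such as retained introns: protein-coding transcripts gave 20.03% of the TPM of Cox6b1, 33.2% of Atp5b and 0.928% of Ndufa10. Over the members, protein-coding transcripts gave 77.8% to 82.1% of the counts of a library, 16 members had under 50% of their counts from them and 56 had 90% or more.

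Paralogs known from other tissues were near the floor. Cox4i2, the oxygen-responsive counterpart of Cox4i1 known from lung, stood at 0.184 to 0.612 CPM in the 12 libraries, against 174 to 302 CPM for Cox4i1. Cox7a1, the heart and muscle form, stood at 0.248 to 0.604 CPM, against 25.6 to 75.3 CPM for its broadly expressed counterpart Cox7a2. Ndufa4l2, a hypoxia-induced paralog, stood at 0.0209 to 0.209 CPM, against 25.2 to 54.9 CPM for Ndufa4, and Cox7b2 at 0 to 0.0466 CPM. The groups overlapped in all 4 of these low genes. Cox4i2 and Cox7a1 were not called in any comparison, and Ndufa4l2 and Cox7b2 were under the count filter and were not tested.

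The comparison of tumor-draining with healthy nodes asks what a growing tumor does to the CD11c cells of its node. Members lay slightly higher in the tumor-draining group, evenly over the complexes, and none passed the test without the block. Of 92 members tested 0 were called, where 0.198% of all genes tested were called in edgeR (limma voom and DESeq2 also called 0 members). At an unadjusted p under 0.05 in edgeR there were 2 members, Sdhaf2 and Ndufaf7, where 7.76% of all genes were. The median log2 fold change was close to 0.17 in each complex (complex I 0.17, II 0.17, III 0.16, IV 0.20, V 0.19, assembly factors and Atp5s 0.17), against -0.02 over all genes tested and 0.06 over the 15823 protein-coding genes tested. The median over all members was 0.175, and it was 0.0867 without healthy replicate 2 and 0.11 with the block without replicate 2, against 0.19 with the block and all libraries. A log2 fold change above 0 was found for 88 of 92 members, against 47.9% of all genes and 59.6% of protein-coding genes. Other gene lists lay mostly above 0 too. These were the proteasome core (14 of 14, median 0.19), the tricarboxylic acid cycle (18 of 20, 0.17) and the mitochondrial ribosome (73 of 78, 0.12). Cytosolic ribosomal proteins were above 0 in 59 of 88 (0.03) and mitochondrially encoded subunits in 3 of 13 (-0.02). Within prefixes, 53 members were higher in the tumor-draining library of all 4 pairs and 0 lower in all 4, against 19.0% and 17.1% of all genes tested and 25.9% and 11.8% of protein-coding genes. No member had groups that did not overlap, where 2.57% of all genes did so with the tumor-draining group higher.

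With the prefix as a block, 1 member was called higher in tumor-draining nodes, Sdhaf2, where 4.02% of all genes were called higher. Sdhaf2, the factor that attaches the FAD cofactor to Sdha, stood at 40.6, 39.8, 45.2 and 39.9 CPM in healthy replicates 1 to 4 and 44.0, 46.0, 56.1 and 50.5 CPM in tumor-draining replicates 1 to 4. All 4 pairs were higher, and healthy replicate 3 lay above tumor-draining replicate 1. Its log2 fold change was 0.25 (SE 0.064, edgeR adjusted p = 0.0438 with the block and 0.606 without). Sdhaf2 was no longer called with the block once any 1 of the 4 prefixes was left out, nor from protein-coding transcripts alone. The smallest p-values in the complexes without the block belonged to Ndufv2, an iron-sulfur subunit of the NADH-binding module, at a log2 fold change of 0.25 (edgeR adjusted p = 0.689), Sdhb at 0.19, Uqcr11 at 0.29 and Cox5a at 0.24, none of which passed in edgeR with the block either. In complex V it belonged to Atp5f1, a stator subunit (edgeR adjusted p = 0.702). DESeq2 with the block called 15 of 94 members higher, among them Ndufv2, Cox5a and Atp5f1, and 4.17% of all genes. That share is over all 52355 genes of the table, with those under the count filter included. It has another base than the edgeR shares, which are over 23729 genes. Given only protein-coding transcripts, a choice made after the data were seen, the median of the members was 0.09, against -0.003806 over the genes then tested.

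**Figure D2:**
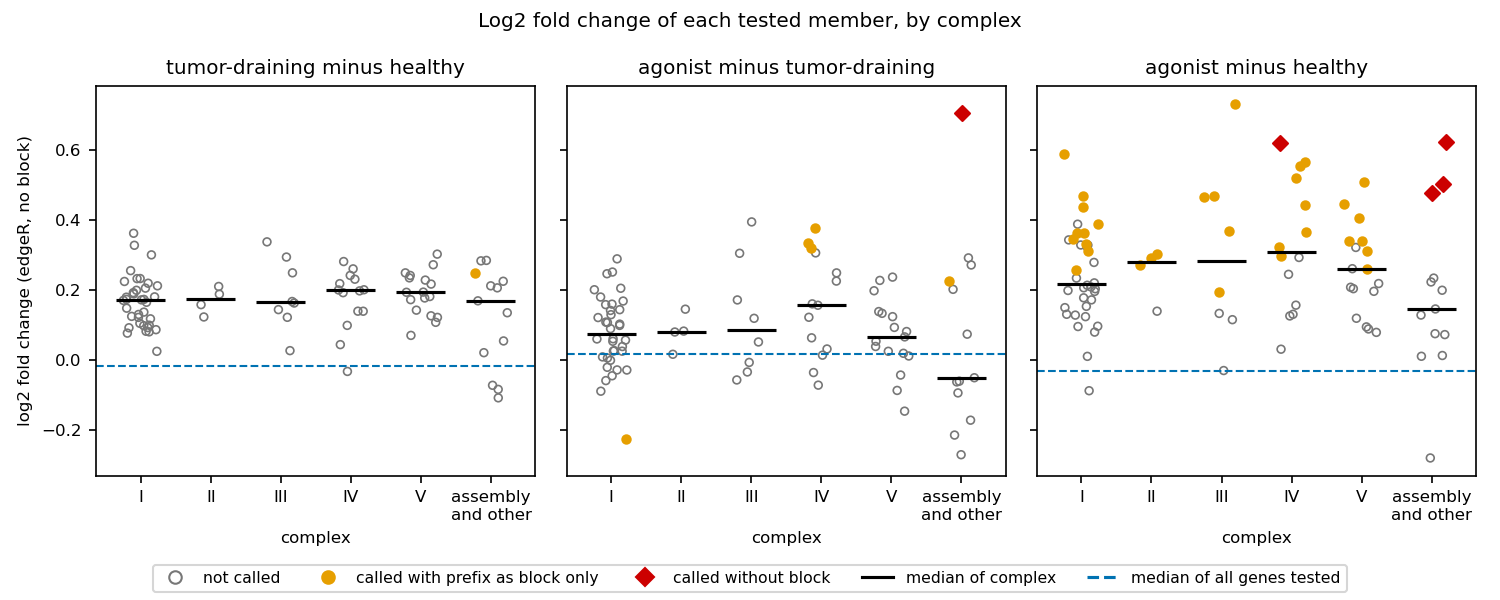
Log2 fold change of each of the 92 tested members in the fit without a block, by complex and comparison, with black bars for the median of each complex and a dashed line for the median of all genes tested. Orange points passed with the prefix as a block and red diamonds passed without it; calls gather in the comparison of the agonist with the healthy group, and the medians of complexes I to V lie above that of all genes in all 3 panels, whereas that of the assembly factors lies below it in agonist against tumor-draining nodes.

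The comparison of agonist with tumor-draining nodes asks what CD40 engagement adds. Few members were called, a smaller share than of all genes in either fit. Without the block the assembly factor Sdhaf1 rose, and with it Sdhaf1, Sdhaf2 and 3 subunits of complex IV rose and 1 core subunit of complex I fell. Without the block 1 of 92 members was called, Sdhaf1, which was higher, where 1.85% of all genes were called higher and 0.830% lower. Sdhaf1, which helps load iron-sulfur clusters into Sdhb, stood at 29.5, 25.5, 22.1 and 27.7 CPM in tumor-draining replicates 1 to 4 and at 41.7, 36.9, 45.1 and 47.0 CPM in agonist replicates 1 to 4. The groups did not overlap, as in 2 members, where 4.86% of all genes did so with the agonist group higher. The log2 fold change of Sdhaf1 was 0.70 (SE 0.14, edgeR adjusted p = 0.0154). Its adjusted p in edgeR was 0.0561 without tumor-draining replicate 2 and 0.0615 without agonist replicate 4, so that 0 members were then called.

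With the prefix as a block 5 members rose and 1 fell, where 6.74% of all genes were called higher and 6.58% lower. Besides Sdhaf1 and Sdhaf2 these were 3 subunits of complex IV. Cox5a, a subunit that joins Cox4i1 early in assembly, stood at 68.3, 59.1, 77.6 and 70.4 CPM in tumor-draining replicates 1 to 4 and at 92.1, 79.5, 99.4 and 86.6 CPM in agonist replicates 1 to 4. The groups did not overlap, and the log2 fold change with the block was 0.38 (SE 0.066, edgeR adjusted p = 0.00278; 0.126 without the block). Cox8a, a small membrane subunit, had a log2 fold change of 0.34 and Cox5b, a zinc-binding subunit, of 0.32 (edgeR adjusted p = 0.0448 and 0.0408 with the block). Ndufs1, the largest subunit of complex I and carrier of several iron-sulfur clusters, stood at 59.8, 66.8, 90.5 and 74.2 CPM in tumor-draining and 51.9, 64.1, 70.3 and 63.2 CPM in agonist replicates 1 to 4. It was lower in all 4 pairs although the groups overlapped, with a log2 fold change of -0.22 (SE 0.066, edgeR adjusted p = 0.0486 with the block and 0.625 without).

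Over all members the median log2 fold change of agonist against tumor-draining nodes was 0.08, against 0.02 over all genes tested, and 69 of 92 members lay above 0, where 52.1% of all genes and 50.6% of protein-coding genes did. In all 4 pairs 11 members were higher and 5 lower, where 17.2% and 16.4% of all genes and 19.2% and 19.9% of protein-coding genes were. Each prefix bore on the count with the block, which was 2, 3, 2 and 9 members without replicates 1 to 4 in turn. The share called higher was then 2.17%, 2.17%, 2.17% and 9.78% of members, and 3.9%, 3.84%, 4.1% and 5.27% of all genes. Of the 6 members called with the block, 4 were among the 9 called without replicate 4. The median with the block was -0.003303 without replicate 3.

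**Figure D3:**
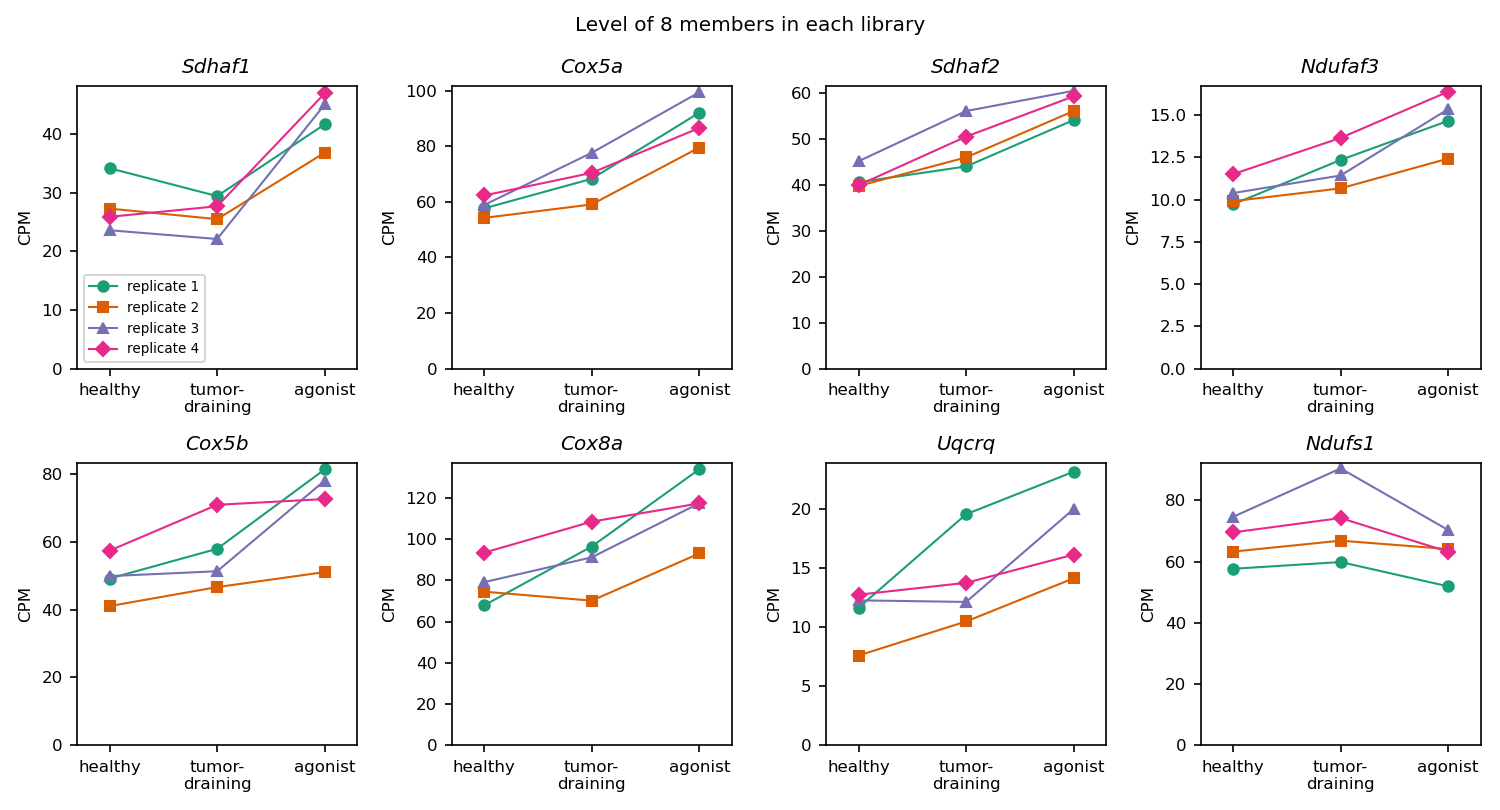
Level of 8 members in each library, in TMM-scaled CPM on axes that start at 0, with 1 line per title prefix. The agonist libraries of Sdhaf1 and Cox5a all sat above the healthy and the tumor-draining libraries, and Ndufs1 was lower in the agonist than in the tumor-draining library of every prefix.

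The comparison of agonist with healthy nodes combines tumor and treatment. Members of every complex were higher with the block and none was lower. Without the block 4 of 92 members were called higher and 0 lower, where 4.25% of all genes were called higher and 2.03% lower. Of the 15823 protein-coding genes tested, 931 were called higher and 410 lower, so that the members did not exceed these shares. The 4 members were Cox5a, Sdhaf1, Sdhaf2 and Ndufaf3. With the block 36 were called higher and 0 lower, where 11.7% of all genes tested and 16.1% of protein-coding genes tested were called higher and 8.46% of all genes lower. The median log2 fold change was 0.23, against -0.03 over all genes tested and 0.04 over protein-coding genes tested, and 89 of 92 members lay above 0 (46.8% of all genes and 55.3% of protein-coding genes). In all 4 pairs 32 members were higher and 0 lower, against 18.7% and 19.8% of all genes and 24.8% and 16.9% of protein-coding genes. In 7 members the groups did not overlap, with the agonist group higher, where 7.60% of all genes and 10.3% of protein-coding genes did so: Ndufa11, Ndufs5, Uqcrq, Cox5a, Ndufaf3, Sdhaf1 and Sdhaf2.

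Among the assembly factors 3 rose without the block. Sdhaf1 stood at 34.2, 27.3, 23.6 and 25.9 CPM in healthy replicates 1 to 4, below all 4 agonist libraries, with a log2 fold change of 0.62 (SE 0.14, edgeR adjusted p = 0.0160). Sdhaf2 averaged 41.4 ± 2.56 CPM in healthy and 57.5 ± 2.92 CPM in agonist libraries (SD, n = 4 each), with a log2 fold change of 0.48 (SE 0.11, edgeR adjusted p = 0.0183). Ndufaf3, which acts with Ndufaf4 early in the assembly of complex I, stood at 9.72, 9.91, 10.4 and 11.5 CPM in healthy and 14.7, 12.4, 15.4 and 16.4 CPM in agonist replicates 1 to 4, with a log2 fold change of 0.50 (SE 0.14, edgeR adjusted p = 0.0407). No overlap was seen in these 3 genes, but their calls without the block were lost when certain single libraries were left out. For Ndufaf3 these included tumor-draining libraries, which are in neither group of this comparison but share its estimate of the spread. Sdhaf1 did not pass without healthy replicate 3 or 4 or agonist replicate 3 or 4 (edgeR adjusted p up to 0.0775), and Sdhaf2 not without healthy replicate 1, 2 or 4 or agonist replicate 2, 3 or 4 (up to 0.07475). With 1 of the 12 libraries left out, Ndufaf3 still passed when that library was agonist replicate 2 or tumor-draining replicate 3 and not for the other 10 (edgeR adjusted p up to 0.157), whereas Cox5a passed each time (up to 0.0261). The count of 4 members became 1 without agonist replicate 3 or 4 and 2 without healthy replicate 1, 2 or 4. With the block the adjusted p was 0.00133 for Sdhaf1, 0.000342 for Sdhaf2 and 0.00205 for Ndufaf3. The other 10 factors did not pass in either fit, and the lowest fold change of all members was in Ndufaf6.

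In complex IV, Cox5a had the smallest p of all members. It averaged 58.2 ± 3.33 CPM in healthy, 68.8 ± 7.66 CPM in tumor-draining and 89.4 ± 8.43 CPM in agonist libraries (SD, n = 4 each), and its log2 fold change of agonist against healthy nodes was 0.62 (SE 0.12, edgeR adjusted p = 0.00551; 8.55e-05 with the block). With the block 8 of 14 tested members of complex IV rose, beside 11.7% of all genes and 16.1% of protein-coding genes: Cox4i1, Cox5a, Cox5b, Cox6a1, Cox6b1, Cox6c, Cox7a2 and Cox8a. Cox7a2, the broadly expressed form of its subunit, had a log2 fold change of 0.55 and Cox8a of 0.55 with the block (edgeR adjusted p = 0.00429 and 0.00275; 0.189 and 0.0518 without). Cox7a2l did not pass, at 293 to 377 CPM in healthy and 305 to 377 CPM in agonist libraries. Ndufa4 did not pass either, at 25.2 to 49.8 CPM in healthy and 29.3 to 54.9 CPM in agonist libraries.

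In complex III 5 of 8 members rose with the block, Uqcr10, Uqcr11, Uqcrc2, Uqcrh and Uqcrq. For this complex and complex II the shares to compare are 11.7% of all genes and 16.1% of protein-coding genes called higher. Uqcrq, a small subunit next to cytochrome b, stood at 11.6, 7.59, 12.3 and 12.7 CPM in healthy and 23.2, 14.1, 20.01 and 16.1 CPM in agonist replicates 1 to 4. The groups did not overlap, and its log2 fold change of 0.73 was the highest of all members in this comparison (SE 0.13, edgeR adjusted p = 0.00197 with the block; 0.0696 without). The core subunit Uqcrc1 (88.5 to 146 CPM in healthy and 104 to 158 CPM in agonist libraries) and the Rieske iron-sulfur protein Uqcrfs1 (59.5 to 79.1 and 60.4 to 81.0 CPM) did not pass in either fit. In complex II Sdhb, Sdhc and Sdhd rose with the block, each by a log2 fold change of 0.28 to 0.30. Sdha, the flavoprotein that oxidizes succinate, did not: it stood at 176, 197, 251 and 228 CPM in healthy and 191, 231, 261 and 257 CPM in agonist replicates 1 to 4.

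In complex I 10 of 36 members rose with the block, beside 16.1% of protein-coding genes: Ndufa2, Ndufa3, Ndufa8, Ndufa11, Ndufa12, Ndufb6, Ndufb9, Ndufs5, Ndufv2 and Ndufv3. All but Ndufv2 are accessory subunits, as are most members of complex I. Ndufa11, a membrane subunit, stood at 15.2, 10.9, 18.0 and 13.7 CPM in healthy and 25.7, 18.1, 22.9 and 20.2 CPM in agonist replicates 1 to 4, just without overlap, with a log2 fold change of 0.59 (SE 0.11, edgeR adjusted p = 0.00271 with the block and 0.0607 without). Of the core subunits that carry electrons, Ndufv2 rose with the block (log2 fold change 0.34, edgeR adjusted p = 0.00939), whereas Ndufs1 (-0.09) and the NADH-binding Ndufv1 (46.0 to 69.9 CPM in healthy and 52.4 to 73.2 CPM in agonist libraries) did not pass. In complex V 7 of 17 members rose with the block: Atp5b, Atp5d, Atp5e, Atp5g1, Atp5g3, Atp5j2 and Atp5k. Atp5g1 and Atp5g3 encode the same c-ring subunit. Atp5k, a subunit of dimers, had a log2 fold change of 0.43 and Atp5b of 0.27 (edgeR adjusted p = 0.0188 and 0.0421 with the block). The alpha subunit Atp5a1 stood at 479 to 703 CPM in healthy and 547 to 776 CPM in agonist libraries and did not pass.

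**Figure D4:**
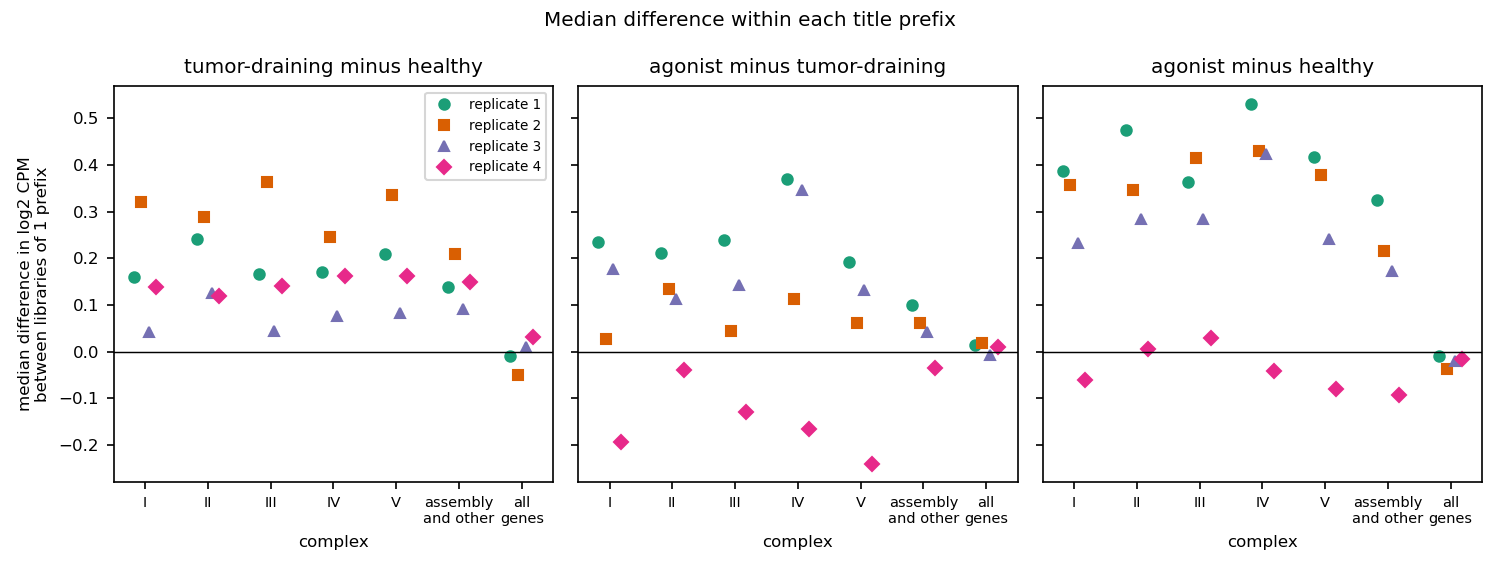
Median difference in log2 CPM between the libraries of 1 title prefix, over the members of each complex and over all genes tested, in the 3 comparisons. In agonist against tumor-draining libraries, replicate 4 lies below 0 in every complex while the medians of the other 3 prefixes are above 0.

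One prefix went against the others after the agonist. Within replicate 4, 18 of 92 members were higher in the agonist than in the tumor-draining library and the median difference was -0.18 in log2 CPM, against 79, 55 and 74 members and medians of 0.23, 0.06 and 0.16 in replicates 1 to 3. Over all genes tested the median difference in replicate 4 was 0.01. Against the healthy library of its prefix, agonist replicate 4 had 39 of 92 members higher (median -0.06), whereas replicates 1 to 3 had 88, 90 and 80 (medians 0.41, 0.37 and 0.24). Leaving replicate 4 out raised the block count of agonist against healthy nodes from 36 to 49 members, and leaving out replicates 1, 2 or 3 lowered it to 9, 9 and 13. Without replicate 4 this was 53.3% of members, where 11.2% of all genes were called higher. Without replicates 1, 2 and 3 it was 9.78%, 9.78% and 14.1% of members, where 6.97%, 6.79% and 6.3% of all genes were. Cox5a, Sdhaf1, Sdhaf2, Ndufaf3, Cox5b, Cox8a and Uqcrq were higher in agonist replicate 4 than in the tumor-draining and the healthy library of its prefix. They were picked as called higher in fits that held this replicate, so that their place in it was partly fixed by the choice. The assembly factor sum was higher in the agonist than in the tumor-draining library of all 4 prefixes, with log2 differences of 0.20, 0.17, 0.24 and 0.18. It averaged 159 CPM in tumor-draining and 182 CPM in agonist libraries, and Sdhaf1 and Sdhaf2 carried this rise. Sdhaf1 averaged 26.2 ± 3.16 CPM in tumor-draining and 42.7 ± 4.45 CPM in agonist libraries, and Sdhaf2 49.2 ± 5.36 and 57.5 ± 2.92 CPM (SD, n = 4 each). Of the 13 factors 6 had a log2 fold change above 0 (median -0.05), and within replicate 4 there were 6 higher and 7 lower.

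The kind of transcript mattered to the block count. Given only protein-coding transcripts, 15 members rose with the block in agonist against healthy nodes, 16.3% of members where 11.6% of the genes then tested were called higher, and 14 of them were among the 36. The median of the members was then 0.20 with the block, against -0.01 over all genes tested. Cox5a (log2 fold change 0.54), Sdhaf1 (0.55), Sdhaf2 (0.40), Ndufaf3 (0.45), Uqcrq (0.67), Ndufa11 (0.51), Cox5b (0.61), Cox8a (0.47) and Atp5g3 (0.36) passed. Without the block 2 members passed, Cox5a and Sdhaf2, 2.17% of members where 6.51% of the genes then tested were called higher. Sdhaf1 and Ndufaf3 did not pass (edgeR adjusted p = 0.0741 and 0.0627). Cox7a2, with 13.8% of its counts from protein-coding transcripts, had an adjusted p of 0.400 in edgeR, and Cox6b1, with 27.5%, of 0.0860. Against tumor-draining nodes the same 6 members were called with the block in either way of summing.

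Sdhaf1, Sdhaf2, Cox5a and Ndufaf3, the members called without the block, are shown with their promoters so that the sequences can be set beside the values. Each is 300 bases from RefSeq on GRCm38.p6, read 5′ to 3′ on the strand of the gene and running from 250 bases before to 50 after the RefSeq start, at chr7:30322326-30322625 (minus strand) for Sdhaf1, chr19:10525160-10525459 (minus) for Sdhaf2, chr9:57520982-57521281 (plus) for Cox5a and chr9:108567387-108567686 (minus) for Ndufaf3. Capitals mark the letters CCGGAAG, the core of sites for ETS factors such as the respiratory gene regulator Gabpa, and ATGGCGG, found in sites for YY1, on either strand.
Sdhaf1: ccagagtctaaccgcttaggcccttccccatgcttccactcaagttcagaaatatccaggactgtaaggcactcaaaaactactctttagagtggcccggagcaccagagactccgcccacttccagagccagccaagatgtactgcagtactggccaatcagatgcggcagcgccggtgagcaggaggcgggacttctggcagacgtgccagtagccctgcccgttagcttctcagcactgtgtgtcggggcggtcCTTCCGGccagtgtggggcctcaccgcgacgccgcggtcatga
Sdhaf2: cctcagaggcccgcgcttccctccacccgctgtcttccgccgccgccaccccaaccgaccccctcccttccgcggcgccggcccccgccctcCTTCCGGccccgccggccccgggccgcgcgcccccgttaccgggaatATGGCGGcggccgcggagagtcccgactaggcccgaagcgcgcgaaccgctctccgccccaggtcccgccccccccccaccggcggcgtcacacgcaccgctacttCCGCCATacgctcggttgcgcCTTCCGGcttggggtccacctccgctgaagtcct
Cox5a: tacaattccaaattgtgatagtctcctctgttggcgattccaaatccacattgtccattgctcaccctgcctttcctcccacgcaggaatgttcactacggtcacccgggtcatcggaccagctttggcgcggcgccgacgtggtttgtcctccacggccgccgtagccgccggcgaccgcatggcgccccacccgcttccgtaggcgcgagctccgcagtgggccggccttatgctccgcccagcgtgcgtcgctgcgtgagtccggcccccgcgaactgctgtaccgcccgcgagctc
Ndufaf3: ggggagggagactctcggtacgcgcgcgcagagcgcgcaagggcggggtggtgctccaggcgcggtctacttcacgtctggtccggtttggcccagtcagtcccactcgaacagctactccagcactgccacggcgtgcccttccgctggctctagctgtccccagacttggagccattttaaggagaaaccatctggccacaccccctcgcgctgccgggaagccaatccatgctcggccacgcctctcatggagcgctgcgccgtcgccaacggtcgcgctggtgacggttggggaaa
Sdhaf1 held 1 ETS match and Sdhaf2 held 2 ETS and 2 YY1 matches, whereas Cox5a and Ndufaf3 held neither in these windows. The matches are letters and not measured sites. The Sdhaf1 window follows the RefSeq start and lies wholly inside the longer GENCODE exon of Sdhaf1 used for the counts, so that it is upstream only of the RefSeq transcript.

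A RefSeq promoter was matched for 76 of the 94 members, in 81 windows, and motifs were counted there and in all 32817 windows of the same length, on both strands. The letters GCATGCGC, from the site of the respiratory gene regulator Nrf1, were in 14.8% of member windows and 2.71% of all windows. The 12 member windows with them belonged to Atp5g2, Atp5k, Atp5l, Cox6a1, Ndufa6, Ndufa8, Ndufa11, Ndufaf4, Ndufaf5, Sdhb, Uqcr11 and Uqcrc1. The ETS form CCGGAAGT was in 6.17% and 3.89%, and the CCGGAAG within it in 25.9% and 8.86%. The YY1 form AAGATGGCG was in 9.88% and 1.40%, and ATGGCGG, which shares letters with it, in 17.3% and 4.05%. The form TCAAGGTCA of estrogen-related receptors was in 2.47% and 0.424%, and AAGGTCA within it in 9.88% and 4.72%. Shares of all windows are over genes of every kind and are not matched to the members for base composition.

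At the locus of Sdhaf1 (chr7:30321406-30323895, 1 exon on the minus strand, GENCODE M21 on GRCm38), a gene on the other strand, E130208F15Rik (chr7:30321740-30323472), lies wholly within that exon and was listed at 0 in all 12 libraries. The sources used here do not say whether the strand was used in counting, so that reads of these genes cannot be told apart. Another annotated gene overlapped 43 of the 94 members, 13 of them on the same strand, among them Impdh2 at Ndufaf3, Cpsf7 at Sdhaf2 and Gm26631 at Cox5a, all on the other strand.

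The 13 subunits encoded by the mitochondrial genome were set beside the nuclear ones without a test of the difference. None was called in any comparison in edgeR with or without the block. Their summed level was lower in the tumor-draining than in the healthy library of all 4 prefixes, with log2 differences of -0.12 to -0.0205, and higher in the agonist than in the tumor-draining library of 2. Their median log2 fold changes over genes were -0.02, -0.07 and -0.10 in tumor-draining against healthy, agonist against tumor-draining and agonist against healthy nodes. The cytochrome c oxidase subunit mt-Co1, the most abundant, stood at 10914, 7619, 6316 and 5637 CPM in healthy and 10806, 7932, 4697 and 4953 CPM in agonist replicates 1 to 4, ordered by prefix more than by group. The prefix accounted for a median of 78.2% of the variance of these 13 genes. The nuclear subunits summed to 36.6%, 43.5%, 69.05% and 78.0% of the mitochondrially encoded ones in healthy, 42.0%, 54.8%, 78.4% and 93.8% in tumor-draining and 47.15%, 51.9%, 112% and 87.6% in agonist replicates 1 to 4. The differences between prefixes were larger than most of those between groups. Malat1, a nuclear RNA often read as a sign of the share of nuclear RNA, was lower in the tumor-draining than in the healthy library of all 4 prefixes and higher again in the agonist library (21983, 22495, 7965 and 8467 CPM in healthy, 16035, 11488, 4528 and 6635 CPM in tumor-draining and 23486, 20629, 7730 and 12171 CPM in agonist replicates 1 to 4), and its part in the members' differences was not tested.

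Other genes of the pathway were read from lists. Their counts stand beside 11.7% of all genes called higher and 8.46% lower in agonist against healthy nodes with the block, and several are near or below these shares. Of 78 proteins of the mitochondrial ribosome, 20 were called higher and 0 lower in agonist against healthy nodes with the block. Without it 3 were called higher, Mrpl17, Mrpl38 and Mrps6, where 4.25% of all genes were, a share that this list did not exceed. Mrpl38 stood at 23.7, 23.2, 25.9 and 30.6 CPM in healthy and 49.2, 40.4, 62.3 and 55.98 CPM in agonist replicates 1 to 4, without overlap, with a log2 fold change of 1.01 (edgeR adjusted p = 0.00143). Of 40 assembly factors outside the member list 7 were higher (Cmc2, Coa3, Coa4, Coa5, Cox10, Cox17 and Sco1, which act on complex IV or its copper and heme) and 2 lower (Lyrm7 and Ttc19, which act on complex III), of 22 genes of cytochrome c and coenzyme Q 5 were higher and 1 lower, and of 20 of the tricarboxylic acid cycle 3 were higher and 1 lower, all with the block. The lower one was fumarase, Fh1 (log2 fold change -0.37 with the block, edgeR adjusted p = 0.00863, and 0.179 without). In agonist against tumor-draining nodes Fh1 was called lower without the block too, at 98.4, 82.3, 111 and 100 CPM in tumor-draining and 59.9, 56.5, 69.2 and 54.2 CPM in agonist replicates 1 to 4 (log2 fold change -0.71, edgeR adjusted p = 0.0215). Of 15 regulators of mitochondrial biogenesis, Ppargc1b was higher and Gabpa lower with the block, and Nrf1, Esrra, Tfam, Ppargc1a and Myc did not pass. Of 88 cytosolic ribosomal proteins 5 were higher and 4 lower, and of 14 subunits of the proteasome core 9 were higher, in agonist against healthy nodes with the block.

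Markers of cell types moved with the groups beside these results. In agonist against healthy nodes without the block, 4.25% of all genes were called higher and 2.03% lower, and the marker counts stand beside these shares. Of 13 dendritic cell markers 1 was higher (Ccr7) and 4 lower (Cd209a, Clec9a, H2-Ab1 and Xcr1). Itgax, also among the 13, was not called (log2 fold change -0.19, edgeR adjusted p = 0.739). The sum of the 13 ranged from 20724 to 32659 CPM in healthy, 20543 to 34480 CPM in tumor-draining and 14336 to 21623 CPM in agonist libraries. Of 12 monocyte and macrophage markers 7 were higher and 2 lower, with sums of 4100 to 5338, 4295 to 5656 and 6389 to 9234 CPM. Of 8 neutrophil markers tested 3 were higher, with sums of 28.4 to 39.7, 54.1 to 187 and 66.3 to 144 CPM. Of 12 T cell markers 5 were lower, of 10 B cell and 10 natural killer cell markers 1 was higher and 1 lower in each, of 8 plasma cell markers tested 3 were higher, and of 10 stromal and 5 erythroid markers 0 were called in edgeR. The T cell marker sums overlapped, at 406 to 619 CPM in healthy, 358 to 624 CPM in tumor-draining and 309 to 579 CPM in agonist libraries. With the block, the fit in which 36 members were called, 3 dendritic cell markers were higher and 8 lower, 8 monocyte and macrophage markers higher and 2 lower, 8 of 8 neutrophil markers higher, and 1 T cell marker higher and 9 lower, beside 11.7% of all genes higher and 8.46% lower. The part of these cell types in the members' differences was not tested, and in bulk RNA fewer cells of a type and less RNA per cell cannot be told apart.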

How the data were processed

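RNA of CD11c cells was measured in 12 libraries in 3 groups of 4, grouped by the labels. Per the labels' protocols, total RNA (Qiagen RNeasy Plus Micro) went into strand-marking libraries (NEBNext Ultra II Directional). The submitters' processing notes name Salmon and mm10 for the deposited estimated counts per transcript, which the authors left unnormalized as far as the values show. The name of the deposited table points to Sailfish, a related program, and which of them made the values was not settled. TPM values per transcript, already scaled by the authors for length and depth, were deposited in a second table. The sources used here do not give the program version, annotation release or strand setting.

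Of 132374 transcripts, 131974 were matched by identifier to GENCODE M21 and summed to genes. The other 400 (0.116% to 0.147% of a library's counts) were left out. Sums were rounded and tested with edgeR 4.0.16 in R 4.3.3 (robust quasi-likelihood F test, TMM scaling, filterByExpr with a minimum count of 10), all 12 libraries in each fit with group as the only term (9 residual degrees of freedom, biological coefficient of variation 33.9%). At this spread and n = 4, small differences can go unseen. The script was tested on simulated counts. These held no effect of the prefix, so they cannot show how either fit behaves on libraries that differ by prefix.

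The title prefix was taken to pair libraries because deviations from the group means correlated at 0.204 to 0.473 in all 12 pairs of the same prefix and at -0.45 to 0.333 (median -0.235) in the 36 others. The fit with the prefix as a block had 6 residual degrees of freedom and a coefficient of variation of 20.7%. Log2 CPM used a prior count of 2.

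Named members are those called without the block, up to 6 risen and 6 fallen with the block per comparison, the most abundant and the smallest p per complex, and a fixed list of core subunits and paralogs. The members not so named are given by name or count only. In related lists, genes called without the block are named if 5 or fewer, otherwise the 3 with the smallest p. E130208F15Rik, Ndufaf6, Ndufaf7, Ndufs5 and the genes listed as called were named after their values were seen. Members and lists were chosen with earlier results of these data known.

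Alternatives were limma voom 3.58.1, DESeq2 1.42.0, other scalings and filters, the deposited TPM, 2 groups only, protein-coding transcripts only (added after the data were seen), and leaving out each library or prefix.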

Additional observations from a re-analysis of the deposited data

Results flagged for a closer look

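In 3 of 123 groups of 4 libraries examined (members and sums), 1 library lay far from the other 3 by Dixon's criterion at the 95% level. Chance alone gives such a library in about 1 group in 20. Atp5b in the agonist group was at 955.771 CPM in replicate 3, with the others at 701 to 744 CPM. Sdhaf2 in the healthy group was at 45.1587 CPM in replicate 3, with the others at 39.8 to 40.6 CPM. Ndufa4l2 in the agonist group was at 0.208941 CPM in replicate 1, with the others at 0.116 to 0.131 CPM, a level under the count filter.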

How the results depend on the processing

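The title prefix as a replicate block raised the number of genes called from 47 to 1495 in tumor-draining against healthy nodes, from 635 to 3161 in agonist against tumor-draining nodes and from 1490 to 4781 in agonist against healthy nodes, and the members called from 0 to 1, 1 to 6 and 4 to 36. DESeq2 called 367, 1077 and 2062 genes in the 3 comparisons. In the third it called 7 members, 7.45% of members where 2.61% of all genes of the table were called higher. DESeq2 with the block called 3002, 4113 and 5226 genes and 15, 7 and 38 members. In tumor-draining against healthy nodes limma voom called 1 gene, no count filter 75 and a fit of only these groups 25. With no count filter, agonist against healthy nodes gave 2 members, 2.13% of members where 2.13% of all genes were called higher.

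Leaving out 1 library at a time gave 0 to 101, 323 to 547 and 829 to 1535 genes and 0, 0 to 1 and 1 to 5 members in the 3 comparisons. Leaving out prefixes 1 to 4 in turn with the block gave 107, 193, 164 and 1502 genes, then 1609, 2241, 2311 and 2333, then 2751, 3134, 3172 and 4450, and 0, 0, 0 and 1 members, then 2, 3, 2 and 9, then 9, 9, 13 and 49. Given protein-coding transcripts only, an alternative added after the data were seen, 18, 985 and 1726 genes and 0, 2 and 2 members were called, and with the block 442, 2696 and 3426 genes and 0, 6 and 15 members.

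The direction reversed in a few uncalled values. In tumor-draining against healthy nodes, Sdhaf1 was at 0.02077 without healthy replicate 1 (range without 1 library -0.1577 to 0.02077), Cox7a2 at -0.008233 from protein-coding transcripts and Cox5b at -0.02176 from these with the block. In agonist against tumor-draining nodes, Atp5b was at -0.001841 without tumor-draining replicate 1, -0.04805 without agonist replicate 3 (range without 1 library -0.04805 to 0.1197) and -0.03045 with the block without replicate 3, where Uqcr11 was at -0.04246 and the median of the members at -0.003303. The cause was not tested. Of the other values of single members under an alternative, 1417 kept their direction and side of the threshold, 107 passed it and 29 no longer did. With 4 libraries a group, calls of small differences depend on single libraries; members under the count filter were not tested.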
